A study of Rattus norvegicus with 24 samples.

Results

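Dorsal root ganglia (DRG) of rats trained by shallow water walking after a spinal contusion (CONT SCI + SWW, n = 5) were set against DRG of uninjured rats (No SCI, n = 4), to measure how far the walk-trained ganglia lay from the uninjured state. These 9 samples, out of 24 in the series, are all those whose labels give either group, and the comparison itself was picked with earlier results of these data known. All were young adult female Sprague Dawley rats, and all, the uninjured ones included, lived in small cages that restrict walking. The CONT SCI + SWW rats received a 25 g-cm contusion of the spinal cord at the second thoracic vertebra. They walked in shallow water 5 days a week for 10 weeks, starting 2.5 weeks after injury, and their tissue was collected at 13.5 weeks. No SCI rats had neither injury nor training, and their tissue was collected at 11.5 weeks. Injury, training and collection time therefore change together in this comparison and cannot be told apart within it. Contused, untrained rats (CONT SCI, 11.5 weeks, n = 6), contused and swim-trained rats (CONT SCI + SWIM, 13.5 weeks, n = 5) and rats with a complete transection at the same vertebra and no training (TX SCI, 8.5 weeks, n = 4) are used to place these values, and CONT SCI and CONT SCI + SWIM also entered the fit behind every gene call. Each library came from 1 rat and pooled the ganglia of both sides from the lower thoracic to the lumbar levels.

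DRG hold the cell bodies of the sensory neurons that carry touch, body position, temperature and pain from the trunk and limbs to the spinal cord. Each cell body is wrapped by satellite glia and sits among Schwann cells, blood vessels, fibroblasts and macrophages. The ganglia sampled here lie below the level of the injury. Sensory neurons in such ganglia are known to sprout and to become more excitable after spinal injury, and training is used to feed them patterned input from skin and muscle. In whole-ganglion RNA, fewer cells of a type and less RNA per cell cannot be told apart. The rows of the count table carry Ensembl identifiers alone, and 0 of 24613 could be paired with a gene symbol by the tables at hand. The tissue was therefore not checked against marker genes, cell types and pathways are not described, and single genes are given by identifier, without their roles.

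The total count per library was 20063150 to 29995120 in CONT SCI + SWW and 29191327 to 33841979 in No SCI, so the trained libraries were for the most part shallower. Genes with any count numbered 17085 to 17533 per CONT SCI + SWW library and 17413 to 17777 per No SCI library. Of the uninjured rats, No SCI replicate 3 stood somewhat apart: the gene with the most reads held 2.14% of the total there and 1.58% to 1.71% in the 3 other libraries, and it lay farthest from the mean of its own group. Several of the counts that can rest on it are given with and without it, and the others only with it.

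Gene expression differed widely between walk-trained and uninjured ganglia. Of 15179 genes tested, 3483 (22.9%) passed the edgeR quasi-likelihood test (Benjamini-Hochberg adjusted p under 0.05), 1392 of them higher (9.17% of those tested) and 2091 lower (13.8%) in CONT SCI + SWW. Without No SCI replicate 3 the same test called 3369 genes, 1284 higher and 2085 lower. The lowest count, 2614, came without No SCI replicate 1, and the fall was mainly among genes higher in CONT SCI + SWW, of which 803 then passed. The excess of lower over higher genes narrowed with upper quartile scaling, to 1674 higher and 1943 lower. With a minimum count of 50 it also narrowed, to 1537 higher and 1829 lower. Of the 3483 called genes, 2677 also had no overlap between the 5 trained and the 4 uninjured samples (76.9%). Such a lack of overlap, called or not, was present in 21.4% of all tested genes.

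Most of the changes were small, and most of the larger ones were falls. The median absolute log2 fold change was 0.36 among the called genes and 0.15 among all tested genes, and 3007 of the 3483 changed by less than 1 on the log2 scale. The other 476 were 3.14% of all tested genes. In the 2251 called genes under 0.5, rises and falls were nearly balanced, at 1196 and 1055. From 0.5 to 1, 626 of 756 genes were lower in CONT SCI + SWW (82.8%), from 1 to 2, 254 of 312 (81.4%), and at 2 or more, 156 of 164 were lower (95.1%). These 156 genes were 1.03% of those tested, and the 8 that were higher by as much were 0.0527%. No called gene rose by 4 or more on the log2 scale, while 40 fell by that much. The number that rose by 2 or more, 8 with all samples, depended on single rats. It was 1 without CONT SCI + SWW replicate 4, 17 without No SCI replicate 3, and 3 without No SCI replicate 1 or 4 or CONT SCI + SWW replicate 5. The number that fell by 2 or more stayed between 137 and 175 with each of the 9 samples left out in turn.

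**Figure D1:**
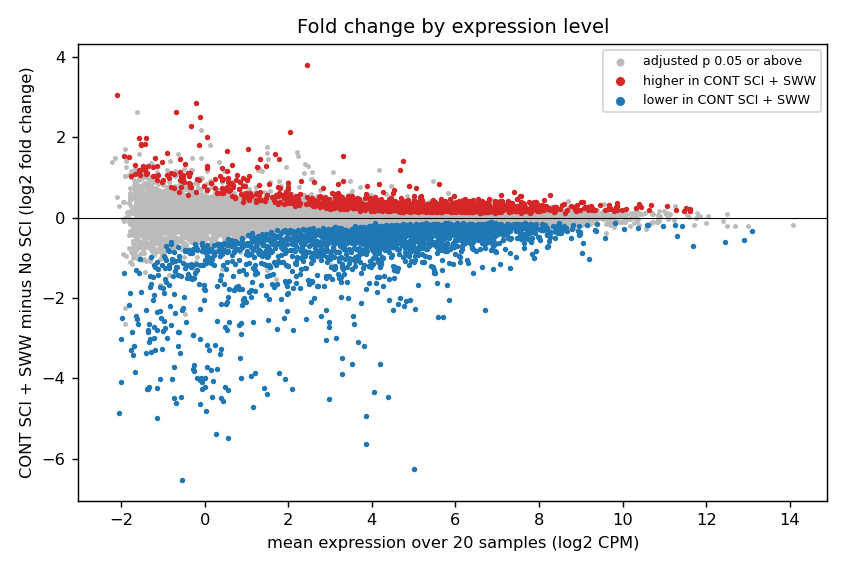
Log2 fold change of CONT SCI + SWW over No SCI (vertical axis) against mean expression in log2 CPM over 20 samples (horizontal axis), 1 point per tested gene, with genes past the edgeR test in red (1392 higher) or blue (2091 lower). Falls reach below -6 and are spread over low and middle expression, while rises past 2 are few.

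Falls outnumbered rises most at low and middle expression, given as CPM (reads of a gene scaled to the effective library size) and averaged over the 20 fitted samples. Among 2605 genes with a mean log2 CPM under 1, 283 were lower and 115 higher in CONT SCI + SWW. From 1 to 3, 349 of 2502 genes were lower and 115 higher, and from 3 to 5, 666 of 4329 were lower and 394 higher. From 5 to 7, falls outnumbered rises only slightly, at 594 and 558 of 4097 genes, and at 7 or more there were 199 falls and 210 rises among 1646 genes. The share of genes called was 15.3% in the lowest class and 28.1% in the class from 5 to 7. Read counts are more precise for abundant genes, and the median absolute change of a called gene was 1.19 on the log2 scale in the lowest class and 0.25 in the highest. Called falls of 1 or more numbered 197 in the lowest class, 94 from 1 to 3, 87 from 3 to 5, 28 from 5 to 7 and 4 at 7 or more. That average includes the trained rats, so a fall lowers the class of a gene and a rise raises it. With classes set by the mean in CONT SCI, whose rats are in neither group compared, falls and rises numbered 251 and 131 in the lowest class, 325 and 120 from 1 to 3, 653 and 419 from 3 to 5, 623 and 528 from 5 to 7 and 239 and 194 at 7 or more. Falls then outnumbered rises in each class. CONT SCI lay close to No SCI in these genes, at a median log2 difference of -0.02 for the falls and 0.01 for the rises. These classes thus place a gene near its uninjured level, which raises the class of a fall and lowers that of a rise. Other scalings were not tried by class.

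The single genes given here are those with the largest rise and fall among 2417 called genes (15.9% of those tested) whose groups did not overlap and whose mean log2 CPM was 1 or more. The deepest falls were close to a loss of signal. ENSRNOG00000055936 had 56.0, 52.8, 69.0 and 60.0 CPM in the 4 No SCI samples and 0.624, 1.09, 0.701, 0.834 and 0.631 CPM in the 5 CONT SCI + SWW samples. The trained libraries held 17 to 33 reads of this gene each, against 1546 to 2408 in the uninjured ones, so the groups lay far apart. Its log2 fold change of -6.25 had a standard error of 0.20 (adjusted p = 1.72e-15, edgeR). ENSRNOG00000004757 had 23.9, 24.6, 21.8 and 26.8 CPM in No SCI and 0.555, 0.630, 0.206, 0.981 and 0.140 CPM in CONT SCI + SWW. Again no trained sample came near an uninjured one, and the log2 fold change of -5.63 had a standard error of 0.27 (adjusted p = 1.47e-12, edgeR).

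In neither gene was the low level particular to walk training. ENSRNOG00000055936 lay between 0.577 and 0.967 CPM in CONT SCI + SWIM and between 0.815 and 1.43 CPM in TX SCI, whose rats were not trained. In CONT SCI it lay between 49.2 and 86.0 CPM, over the range of No SCI. Its difference between CONT SCI + SWW and CONT SCI was -6.38 ± 0.19 on the log2 scale (± standard error, adjusted p = 9.13e-16, edgeR), and between CONT SCI + SWW and CONT SCI + SWIM it was -0.10 ± 0.32 (adjusted p = 0.897, edgeR). ENSRNOG00000004757 had the same arrangement, at 0.423 to 0.991 CPM in CONT SCI + SWIM, 0.911 to 1.46 CPM in TX SCI and 22.2 to 42.5 CPM in CONT SCI. The 2 genes were therefore high in both groups collected at 11.5 weeks and low in the 3 groups collected at other times. TX SCI values here and below are scaled with all 24 libraries, and the other values with 20.

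The largest rises were smaller and more variable among rats. ENSRNOG00000006151 had 0.369, 0.512, 0.344 and 0.586 CPM in No SCI and 0.901, 2.15, 3.96, 21.7 and 4.10 CPM in CONT SCI + SWW. Every trained sample lay above every uninjured one, which the rule for naming genes required, but replicate 4 was more than 5 times as high as the next. The log2 fold change was 3.81 ± 1.13 (± standard error, adjusted p = 0.0173, edgeR), and without CONT SCI + SWW replicate 4 it was 2.61 and no longer passed (edgeR adjusted p = 0.0843). This gene was also raised over No SCI in CONT SCI, where it lay between 1.16 and 21.5 CPM (log2 fold change 4.45 ± 1.09, adjusted p = 0.00845, edgeR). In CONT SCI + SWIM it lay between 0.644 and 9.86 CPM, with a log2 fold change of 2.74 over No SCI that did not pass (edgeR adjusted p = 0.0888). The difference between walk-trained and untrained contused rats was -0.64 ± 0.73 (adjusted p = 0.508, edgeR), within the spread of these groups, and TX SCI lay between 11.9 and 49.6 CPM.

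ENSRNOG00000032825 had 1.11, 1.02, 1.32 and 0.930 CPM in No SCI and 1.66, 2.05, 6.51, 6.67 and 1.51 CPM in CONT SCI + SWW. Replicates 3 and 4 were high and the other 3 trained rats only slightly above the uninjured range. Its log2 fold change was 1.71 ± 0.55 (± standard error, adjusted p = 0.0277, edgeR), and it stayed between 1.39 and 1.92 in the 9 fits that left 1 sample out, with edgeR adjusted p values of 0.0165 to 0.0869. The adjusted threshold was missed in 5 of them, at 1.64 to 1.70 without No SCI replicate 1, 2 or 4 and at 1.39 without CONT SCI + SWW replicate 3 or 4. Its level was 0.723 to 1.33 CPM in 5 of the 6 CONT SCI samples and 5.19 CPM in the remaining one, 1.22 to 2.23 CPM in CONT SCI + SWIM and 1.05 to 2.14 CPM in TX SCI. Neither the difference from CONT SCI nor that from CONT SCI + SWIM passed (edgeR adjusted p = 0.0562 and 0.245).

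**Figure D2:**
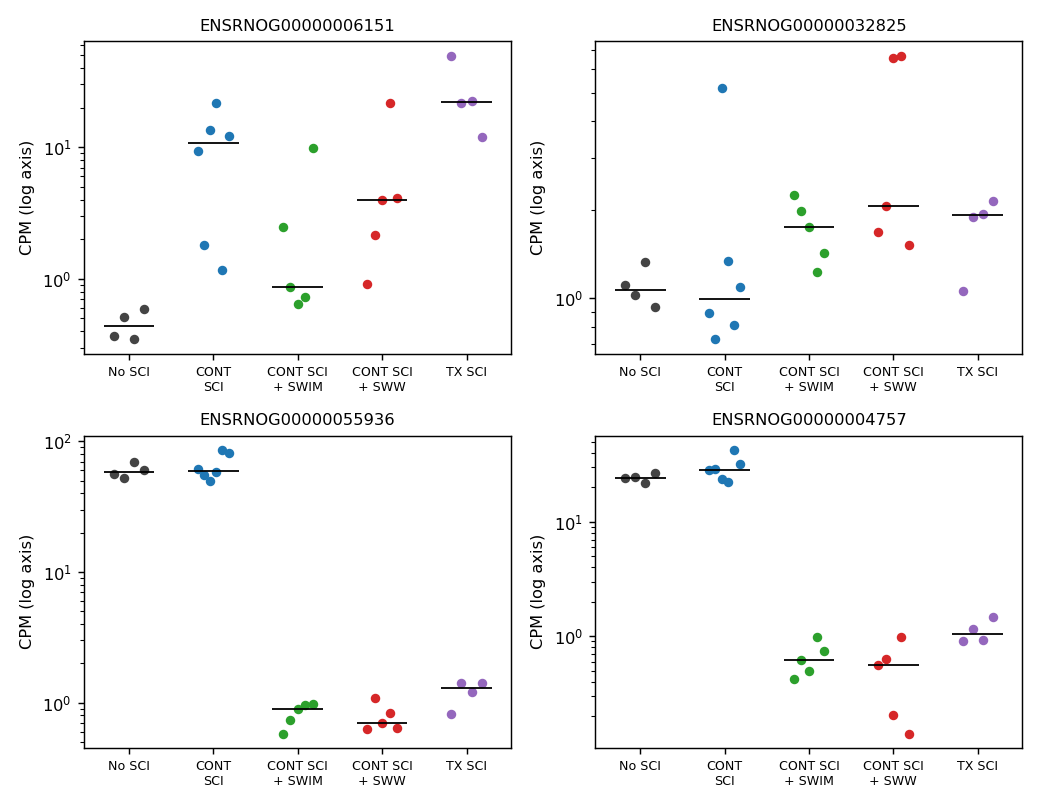
CPM (log axis, scaled over 24 libraries) of the 2 largest rises (upper panels) and the 2 largest falls (lower panels) in each rat of the 5 groups, with the group median as a line. Both falls are below 1.5 CPM in CONT SCI + SWW, CONT SCI + SWIM and TX SCI, reaching 0.141 CPM in a walk-trained rat for ENSRNOG00000004757, and above 20 CPM in No SCI and CONT SCI, whereas the rises spread widely among the 5 walk-trained rats.

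Taken as a group, the 156 genes that fell by 2 or more were a small part of each library. Their summed CPM (here per total count) was 1420 to 1654 in No SCI and 170 to 339 in CONT SCI + SWW, the same comparison that chose them. In 125 of the 156 no trained sample reached an uninjured one, which the choice of these genes favours, and 21.4% of all tested genes lacked overlap in either direction. No SCI replicate 3 was the highest uninjured sample in 74 of the 156, and without it 138 genes fell by 2 or more. In 17 of the 156, 1 uninjured sample held most of the No SCI sum, and it was replicate 3 in 16 of these. Only 52 of the 156 had a mean log2 CPM of 1 or more. The summed CPM of all 156 genes was 1278 to 1684 in CONT SCI, 233 to 273 in CONT SCI + SWIM and 254 to 326 in TX SCI, the last of which did not overlap with CONT SCI either. Among all called genes, those higher in CONT SCI + SWW took 13.6% to 14.1% of its reads, against 11.3% to 11.7% in No SCI, and those lower took 11.2% to 12.4%, against 15.4% to 16.1%.

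How far the changes recur in rats that did not define them was examined by leaving 1 CONT SCI + SWW and 1 No SCI rat out of the fit and then comparing that pair. Over the 20 pairs, the fit without them called 2267 to 3228 genes. In the left-out pair, 83.2% to 97.7% of these genes differed in the called direction (median 94.6%), against 62.6% to 75.4% of all tested genes. The size of the difference was a median of 0.83 of that in the fit. The 5 pairs with No SCI replicate 3 gave 83.2% to 92.5%, and the 15 other pairs gave 93.3% to 97.7%. Each walk-trained rat showed the changes: the median over its 4 pairs was 96.7%, 94.7%, 96.6%, 93.5% and 93.8% for replicates 1 to 5. Their size relative to the fit was smallest in replicate 2, at a median of 0.74, and largest in replicate 5, at 1.12. The 20 pairs reuse the same rats and are not independent, and each pair differs in collection time as the 2 groups do.

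**Figure D3:**
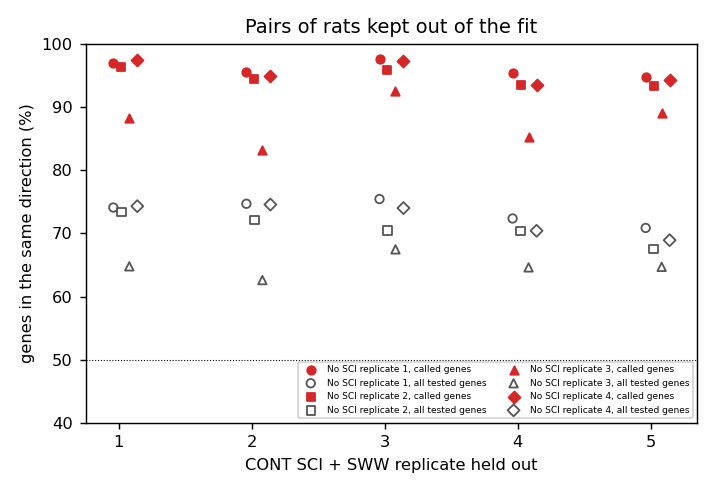
Share of genes (%) whose difference within a held-out pair of rats had the direction found without that pair, by CONT SCI + SWW replicate (horizontal axis) and No SCI replicate (marker shape), for called genes (filled) and all tested genes (open). Filled points lie between 83.2% and 97.7% and open points between 62.6% and 75.4%, lowest with No SCI replicate 3 (triangles), and the dotted line marks equal shares of both directions.

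The distance of each rat from the uninjured mean was taken as the root mean square difference in log2 CPM over all 15179 genes. It was 0.498, 0.435, 0.509, 0.532 and 0.584 in the CONT SCI + SWW rats. The No SCI rats, each measured from the mean of the other 3, lay at 0.276, 0.267, 0.322 and 0.248, below every walk-trained rat. The mean was 0.512 ± 0.054 (SD, n = 5) in CONT SCI + SWW, against 0.364 ± 0.039 (SD, n = 6) in CONT SCI, whose range did not overlap. The walk-trained rats were thus farther from the uninjured mean than the untrained contused rats, by 0.148 (p = 0.00216 in a two-sided exact permutation test, which is the lowest possible value with 5 and 6 samples, and 0.00433 when adjusted for 2 tests by Benjamini-Hochberg). CONT SCI was collected at the same time as No SCI, and CONT SCI + SWW later. Training and collection time therefore change together in this test, and the part of each in the greater distance was not tested. The call of a greater distance depended on the measure. It was lost with the median absolute difference in place of the root mean square (difference 0.0274, adjusted p = 0.444, exact permutation test). It was also lost with genes of a mean log2 CPM of at least 5 alone (difference 0.0519, adjusted p = 0.199, exact permutation test).

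CONT SCI + SWIM lay at 0.519 ± 0.042 (SD, n = 5), over the same range as CONT SCI + SWW. The difference of the 2 trained groups was -0.00686 (two-sided exact permutation test, p = 0.833, unchanged by the adjustment), and its sign depended on single rats. The mean distance of a walk-trained rat to single rats of other groups was 0.483 to 0.620 for No SCI and 0.551 to 0.622 for CONT SCI. To CONT SCI + SWIM it was 0.373 to 0.442, and to the other walk-trained rats 0.374 to 0.417. Replicates 1 and 5 lay nearer to CONT SCI + SWIM than to their own group, by a small margin, and all 5 lay nearer to No SCI than to CONT SCI, replicate 5 only barely, at 0.620 against 0.622. The CONT SCI rats also varied more among themselves, with a median SD per gene of 0.114 against 0.090 in No SCI (log2 CPM, 5743 genes at a mean of 5 or more). Trained libraries were shallower than CONT SCI libraries, and with every library thinned to the smallest total the difference from CONT SCI in distance to No SCI was 0.122 (adjusted p = 0.0130, exact permutation test).

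**Figure D4:**
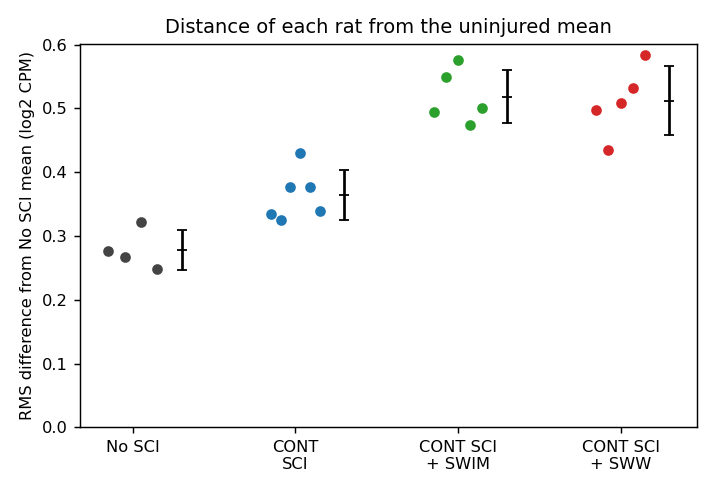
Root mean square difference in log2 CPM of each rat from the No SCI mean (vertical axis, from 0) by group, with the mean ± SD beside the points. The 5 CONT SCI + SWW rats lie between 0.435 and 0.584, above all CONT SCI rats and over the same range as CONT SCI + SWIM.

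Gene by gene, the 3 contused groups can be set beside each other against the same 4 uninjured rats, which they share. CONT SCI + SWIM differed from No SCI at 4262 genes (28.1%), 1821 higher (12%) and 2441 lower (16.1%), in the same edgeR test. Its balance turned with upper quartile scaling (2271 higher and 2254 lower) and with a minimum count of 50 (2211 higher and 2067 lower), while falls were the more frequent in each of the 9 fits that left 1 sample out. The number higher was the less stable, at 1097 without No SCI replicate 1 and 1022 without replicate 2. CONT SCI differed from No SCI at 1758 genes (11.6%), 1216 higher (8.01%) and 542 lower (3.57%). It differed at 1132 genes without No SCI replicate 2, 724 of them higher, while 800 were higher without replicate 1 and 354 lower without replicate 4. With upper quartile scaling the CONT SCI genes divided into 994 higher and 742 lower. Changes of 1 or more on the log2 scale numbered 536 in CONT SCI + SWIM (3.53%) and 171 in CONT SCI (1.13%). Falls of 2 or more numbered 156 in CONT SCI + SWW (1.03%), 157 in CONT SCI + SWIM (1.03%) and 27 in CONT SCI (0.178%). The 156 genes of CONT SCI + SWW had a median log2 fold change over No SCI of -3.01 in the comparison that chose them. Against the same 4 uninjured rats, the median was -2.98 in CONT SCI + SWIM and 0.02 in CONT SCI, beside 0.01 and -0.00076 over all tested genes.

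Tested directly, CONT SCI + SWW differed from CONT SCI at 6522 genes (43%), 2833 higher (18.7%) and 3689 lower (24.3%), with 626 changed by 1 or more on the log2 scale (4.12%). Upper quartile scaling turned the balance of this comparison to 3800 higher and 3135 lower, so neither direction can be said to prevail over all called genes. Of the 626 larger changes, 144 were higher and 482 lower. At an adjusted p under 0.01 (edgeR), 1765 genes were higher and 2852 lower. These 2 splits were not tried with other scalings. CONT SCI + SWW and CONT SCI + SWIM differed at 454 genes (2.99%), 49 higher (0.323%) and 405 lower (2.67%) in CONT SCI + SWW, and at 5 of these by 1 or more on the log2 scale (0.0329%). The count of 454 was sensitive to single rats: it ranged from 123 without CONT SCI + SWIM replicate 3 to 811 without CONT SCI + SWW replicate 5. It was 214 without CONT SCI + SWIM replicate 2 and 187, 207 and 149 without CONT SCI + SWW replicates 2, 3 and 4.

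The changes of CONT SCI + SWW against No SCI were also followed in comparisons that use none of the same rats. Between CONT SCI + SWIM and CONT SCI, 2050 of the 2091 genes called lower were lower too (98.0%), and only 30 of the 1392 called higher were lower (2.16%), while 51.9% of all tested genes were lower. The median log2 difference in that comparison was -0.46 for the genes called lower and 0.22 for those called higher. Between TX SCI and CONT SCI, where neither group was trained, 1952 of 2088 genes called lower were lower (93.5%), as were 148 of the 1392 called higher (10.6%) and 50.6% of all tested genes. Of the 153 genes tested there that fell by 2 or more in CONT SCI + SWW, 118 had no overlap between TX SCI and CONT SCI, with TX SCI lower (77.1%), against 14.7% of all tested genes. Their median difference between TX SCI and CONT SCI was -2.49.

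Across genes, the log2 fold changes of CONT SCI + SWW over No SCI had a Pearson's r of 0.812 (Spearman's rho 0.693, 15179 genes) with those of CONT SCI + SWIM over CONT SCI, and of 0.724 (Spearman's rho 0.554, 15163 genes) with those of TX SCI over CONT SCI. Genes are not independent replicates, and in each of these comparisons the group subtracted (No SCI or CONT SCI) was collected at 11.5 weeks. Training and collection time differ between CONT SCI + SWIM and CONT SCI, and injury and collection time between TX SCI and CONT SCI. The labels name 2 sets of the library kit without giving the set of each sample, and the part of a library or sequencing batch in these differences was not tested.

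**Figure D5:**
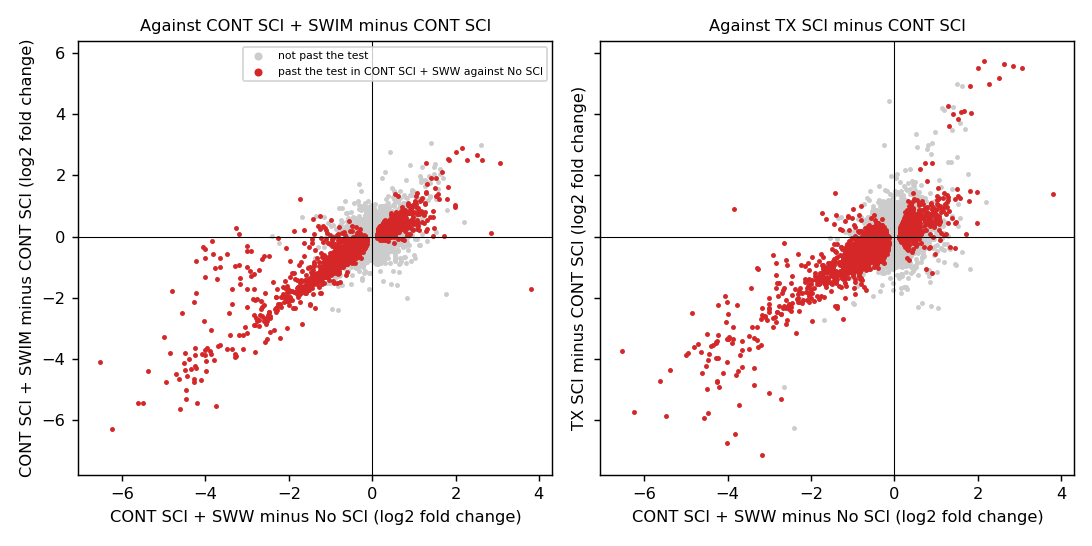
Log2 fold change of each tested gene in CONT SCI + SWW over No SCI (horizontal axis) against that in CONT SCI + SWIM over CONT SCI (left) and TX SCI over CONT SCI (right), which share no rat with it, with genes called in CONT SCI + SWW against No SCI in red. Most red points lie in the lower left and upper right of each panel, and the deep falls recur in both panels.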

How the data were processed

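The authors aligned single-end reads of poly-A RNA to Rn6 with STAR, counted reads per Ensembl gene by strand with HTSeq 0.10.0 (version per the labels) after removing mitochondrial genes, and deposited raw read counts, 1 column per rat. Reads shared by near-identical or overlapping genes may be lost from such counts. Columns were matched to samples by group and replicate number.

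From the counts, edgeR 4.0.16 (R 4.3.3) fitted the 20 libraries of No SCI, CONT SCI, CONT SCI + SWIM and CONT SCI + SWW together, after filterByExpr (minimum count 10, minimum total 15) and TMM scaling, without covariates. Library totals of 16086670 to 38370849 entered this fit. TX SCI against CONT SCI was fitted separately on all 24 libraries. Genes were called at a Benjamini-Hochberg adjusted p under 0.05 from glmQLFTest, and standard errors were derived from the fold change and the root of its F statistic. Distances used log2 CPM with a prior count of 2, and their permutation tests enumerated every split of the samples compared. Samples of the same group differed by a chi-square of 2.89 to 52.6 per gene over all 47 pairs in the 5 groups, where sampling noise alone gives about 1, so no pair was counted as 1 sample.

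On simulated counts for CONT SCI + SWW against No SCI (15076 genes tested), edgeR called 86 of 100 genes changed by 1 and 67 of 100 changed by 0.5 on the log2 scale, and 12 unchanged ones. With no gene changed it called 0 of 15069.

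The comparison and the lists were chosen with earlier results of these data known. The rule named the 2 largest rises and 2 largest falls by identifier among called genes whose groups did not overlap and whose mean log2 CPM reached 1, which 2417 genes did (15.9%). Gene lists and cell type markers need symbols and were not analysed here, and no sequence could be tied to a row. DESeq2 1.42.0, other scalings, filters and samples in the fit, a replicate block, thinned libraries, stricter thresholds and each sample left out were tried as alternatives. The distance to single No SCI rats, the left-out pairs and the expression classes by CONT SCI were added after the data had been seen.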

Additional observations from a re-analysis of the deposited data

Results flagged for a closer look

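In 24 sets of values (library totals, distances to No SCI and CPM of the 4 named genes, in 4 groups), Dixon's gap test marked 3. About 1.2 would be marked by chance in sets not chosen from the data. The named genes were chosen for their extreme changes in these data, and all 3 marks are in those with the largest rises. The 3 marks therefore cannot be weighed against 1.2. ENSRNOG00000006151 was at 21.7 CPM in CONT SCI + SWW replicate 4, against 0.901 to 4.10 in the other 4 rats of the group. The same gene was at 9.86 CPM in CONT SCI + SWIM replicate 5, against 0.644 to 2.46 in the others. ENSRNOG00000032825 was at 5.19 CPM in CONT SCI replicate 3, against 0.723 to 1.33 in the others.

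Relative to No SCI, CONT SCI + SWW differed from CONT SCI at 6522 genes and from CONT SCI + SWIM at 454 genes (edgeR quasi-likelihood test of the difference itself, Benjamini-Hochberg adjusted). The first pair differs in training and collection time together, which cannot be told apart, and the second pair was collected at the same time.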

How the results depend on the processing

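Of 221 alternative values, 192 kept their direction and call, or stayed within 1.5 times for a count. Against No SCI, CONT SCI + SWW called 3017 to 3733 genes under the other scalings, filters, fits and tools and 2614 to 3369 with 1 sample left out. At an adjusted p under 0.01 it called 2069 genes, CONT SCI + SWIM 2517 and CONT SCI 993. With an absolute log2 fold change of at least 1, these counts were 476, 536 and 171, against CONT SCI 626 and against CONT SCI + SWIM 5. The latter count of 454 was 768 with DESeq2 and 105 at an adjusted p under 0.01. With 1 sample left out, CONT SCI called 1132 to 1716 genes, lowest without No SCI replicate 2, CONT SCI + SWIM 3158 to 4620, and CONT SCI + SWW 5917 to 6723 against CONT SCI and 123 to 811 against CONT SCI + SWIM.

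The distance of CONT SCI + SWW beyond CONT SCI was no longer past the threshold with only the genes above a mean log2 CPM of 5 (0.0519) or as a median absolute difference (0.0274, another scale, so its size cannot be compared), the cause was not tested, and it was 0.130 to 0.167 with 1 sample left out. Beyond CONT SCI + SWIM it was -0.0250 to 0.0123, turning positive without CONT SCI + SWIM replicate 2 (0.000619) or 3 (0.00745) or CONT SCI + SWW replicate 2 (0.0123).

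Replicate numbers name different rats, and deviations of same-numbered CONT SCI + SWW and No SCI samples correlated with r of -0.06 to 0.13 over 4 pairs, 2 of them best with their own number. With the number as a block, the pairing left 3017 genes against No SCI, 5924 against CONT SCI and 251 against CONT SCI + SWIM. With libraries thinned to 16086670 reads, 3076 of 14520 genes passed against No SCI.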
